A study of Mus musculus with 6 samples.

Results

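The G1 cyclins, their kinases and the pocket proteins were followed through 10 genes: the D cyclins Ccnd1, Ccnd2 and Ccnd3, the E cyclins Ccne1 and Ccne2, the kinases Cdk4, Cdk6 and Cdk2, and the pocket proteins Rb1 and Rbl1. A probe set, the group of probes that reads out one transcript region, was taken as a member when the platform's gene table gave it exactly 1 symbol and that symbol was one of the 10, which selected 30 of the 45101 probe sets on the array. The arrays were hybridised with RNA of haematopoietic stem cells (HSCs) from whole bone marrow of C57BL/6 mice aged 8 to 12 weeks. The cells had been sorted as the side population, which pumps out the dye Hoechst, together with antibodies against c-kit, Sca-1 and antigens of mature lineages. Of 6 arrays, 3 were from mice labelled Lrg-47-/-, which lack the interferon-induced GTPase now named Irgm1, and 3 from wild-type mice. The labels give no other difference between the 2 groups and no treatment of the mice in either. The labels do not say which part of the gene was deleted, how many mice were pooled, or that the arrays of a group came from separate mice, so p-values measure the spread between these arrays, which may be technical.

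D cyclins are made when growth signals reach a cell, and they bind and activate Cdk4 and Cdk6. These kinases phosphorylate the pocket proteins, which otherwise hold E2F transcription factors in check. Released E2F factors raise the E cyclins, which activate Cdk2, and the genes of DNA replication, and the cell enters S phase. Most HSCs of adult marrow rest outside the cycle, and Cdk6 is known for setting how fast such a resting cell leaves that state.

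As background for the genes below, Rbl1 is a classical target of E2F factors, and its promoter shows what such a site looks like. The RefSeq promoter table of build GRCm38.p6, which holds 250 bases before to 50 bases after a start site, had 7 windows for 6 of the 10 genes, those of Ccnd3, Ccne1, Cdk2, Cdk4, Cdk6 and Rbl1. The other 4 were Ccnd1, Ccnd2, Ccne2 and Rb1. The windows were searched on both strands for 4 forms of the E2F site, TTTGGCGC, TTTCCCGC, TTTCGCGC and TTTGCCGC, which can overlap one another. The 2 windows with a match are shown with 30 bases on either side, 5′ to 3′ on the gene's own strand, and the capitals mark the match.
Rbl1, chr2:157204515-157204582, minus strand, match starting 18 bases before the start site: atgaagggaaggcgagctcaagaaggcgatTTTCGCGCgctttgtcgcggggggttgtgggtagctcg
Cdk2, chr10:128705154-128705221, minus strand, match starting 140 bases before the start site: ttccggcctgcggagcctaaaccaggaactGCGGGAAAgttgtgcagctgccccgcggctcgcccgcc
The Rbl1 match is TTTCGCGC as written, and the Cdk2 match is TTTCCCGC on the opposite strand. Among all 32851 windows of the table, 744 held a match, or 2.26%, against 2 of the 7 member windows. For the E2F targets of S phase described below, 10 of 19 windows, of 17 genes, held a match. That list was made of E2F targets, so its share is no independent result. A match describes these letters only, and the absence of one in this window says nothing of the factor.

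None of the 10 genes passed the test, and their differences were more often above 0 than below. Expression values are on the log2 scale as the authors normalised them, differences are knockout-labelled minus wild type, and the test is limma's moderated test with Benjamini-Hochberg adjustment over all 22580 probe sets that passed a filter on dim values, at an adjusted p under 0.05. Of the 30 member probe sets, 27 passed this filter, and limma called 0 higher and 0 lower, where 1.39% of all tested probe sets were called, 0.664% higher and 0.722% lower. At an unadjusted p under 0.05 there were 6 of 27, beside 16.4% of all tested probe sets. The 3 knockout-labelled arrays lay wholly above the 3 wild-type arrays for 8 of the 27, beside 11.5% of all tested probe sets, and wholly below for 0, beside 11.0%. The median member difference was 0.24 and 21 of 27 differences were above 0, whereas over all tested probe sets the median was 0.01 and 51.5% were above 0. Probe sets of 1 gene read the same RNA, so these 27 are not independent.

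The 8 probe sets without overlap belonged to 5 genes: Cdk6 with 2, Cdk4 with 2, Rbl1 with 2, Ccne2 with 1 and Ccne1 with 1. The filter did not select for a difference here, since 26 of the 27 lay above the array's median on all 6 arrays and the last, 1 of Rb1, on 4. The 3 probe sets that were not tested, 1 each of Cdk2, Cdk6 and Rbl1, were below the median on all 6 arrays. They ranged from 1.16 to 3.01 on the 6 arrays, under the brightest control for bacterial RNA, 3.18, so they give no level for these genes.

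**Figure D1:**
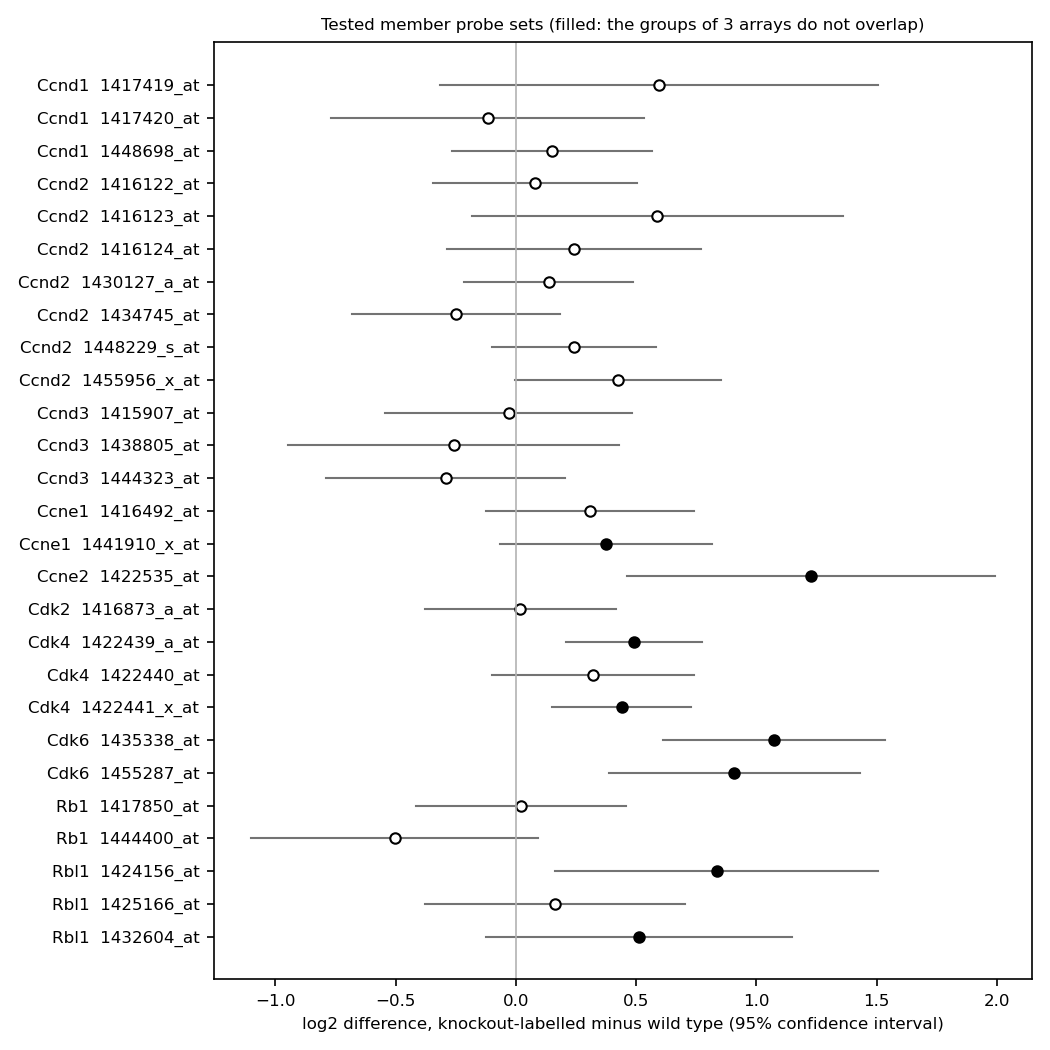
Log2 difference between the knockout-labelled and wild-type arrays (x axis) with its 95% confidence interval for each of the 27 tested probe sets of the 10 genes (y axis), filled where the 3 arrays of one group lie wholly above those of the other. The intervals of both Cdk6 probe sets, Ccne2, 2 of 3 Cdk4 and 1 of 3 Rbl1 probe sets lie above 0, and 0 of the 27 pass after adjustment.

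Several facts of the whole series stand beside these values. Irgm1 was detected in both groups, with a log2 difference of -0.41 (SE 0.25, limma adjusted p = 0.475), and its single probe set checks nothing if it lies outside the deleted part. All 12 HSC markers with a probe set, among them Procr, Mecom and Hlf, lay above the bacterial controls on every array. T and NK cell markers rose in part: 5 of 10 tested genes were called higher, Thy1, Ccl5, Gzmb, Klrd1 and Ms4a4b. The summed level over 16 genes ranged from 13.22 to 14.32 on the log2 scale against 9.031 to 9.997 in wild type. Ccl5, at 12.81, 12.77 and 13.52 against 8.69, 7.33 and 8.29, set most of the knockout-labelled sums. Cd4 and Ncr1 stayed at or below the bacterial controls on all 6 arrays. Megakaryocyte markers were also higher in part, with 2 of 6 called, Selp and Gp1bb, and summed levels of 11.55 to 11.75 against 9.99 to 10.38. Gp1bb passed the filter on dim values only through the knockout-labelled arrays, and 1 wild-type array exceeded the bacterial controls. Its call is thus no independent support. Of the 6 tested, 5 differed by more than 0, and Gp9 by -0.09. The untested Ppbp differed by -0.35 and exceeded the bacterial controls on 1 array, of wild type. The summed level of stromal and endothelial markers was lower, at 6.39 to 6.77 against 7.54 to 8.31. Of 2 tested genes 1 was called lower, the collagen gene Col1a2 (-2.88, limma adjusted p = 0.00889). It was the brightest of the list in wild type, at 7.98, 7.88 and 6.94, and so set most of that sum. The other tested gene, Pdgfrb, differed by -0.08, and 4 of the 8 lay at or below the bacterial controls on all 6 arrays. The untested Cdh5 differed by 0.82, with 1 knockout-labelled array above these controls. Of 6 tested myeloid markers 1 was called higher, Ms4a6c (1.53, limma adjusted p = 0.0313). Cd14 of the same list went the other way without overlap (-1.25, limma adjusted p = 0.0518). The summed levels of that list overlapped, at 11.23 to 11.95 against 11.16 to 11.89. Of the B cell and erythroid markers 0 of 2 and 0 of 1 tested were called by limma, and 0 had an unadjusted p under 0.05. The summed level of the HSC markers was lower, at 15.07 to 15.27 against 15.46 to 15.64, with 0 of 12 called. Single genes went both ways. On the knockout-labelled arrays 6 of the 12 lay wholly below wild type and 2 wholly above, Slamf1 (1.43) and Abcb1b (0.97). Over all 10374 named genes tested, 1282 lay wholly below and 1328 wholly above. In such sorted pools, a change in the share of a cell type and a change of RNA per cell cannot be told apart.

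The D cyclins, the subunits that tie Cdk4 and Cdk6 to growth signals, were detected by all 13 of their probe sets, and in none were the groups separate. The brightest Ccnd2 probe set, 1434745_at, read 12.40, 12.54 and 12.93 in the knockout-labelled group against 13.12, 12.91 and 12.59 in wild type. Knockout-labelled replicate 3 lay above 2 of the wild-type arrays, and the log2 difference was -0.25 (SE 0.18, 95% confidence interval -0.68 to 0.18, adjusted p = 0.551). The other 6 Ccnd2 probe sets had differences from 0.08 to 0.59, opposite in sign to the brightest. The highest of these, 1416123_at, read 9.81, 10.12 and 8.95 in the knockout-labelled group against 8.72, 9.48 and 8.92 in wild type. Replicates 1 and 2 of the knockout-labelled group were the high arrays, replicate 3 lay within the wild-type range, and the difference was 0.59 (SE 0.33, 95% confidence interval -0.18 to 1.36, adjusted p = 0.429). The probe set with the smallest p, 1455956_x_at, differed by 0.42 (SE 0.18, 95% confidence interval -0.01 to 0.85, adjusted p = 0.31), and its suffix marks a set with probes that also match other sequences.

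Ccnd1 gave no common direction. Its brightest probe set, 1448698_at, read 8.28, 8.73 and 8.42 in the knockout-labelled group against 8.45, 8.22 and 8.31 in wild type, a difference of 0.15 (SE 0.18, 95% confidence interval -0.27 to 0.56, adjusted p = 0.73). Replicates 1 and 3 of the knockout-labelled group lay within the wild-type range. The probe set 1417419_at differed by 0.59 (95% confidence interval -0.32 to 1.50) and 1417420_at by -0.12 (95% confidence interval -0.77 to 0.53). In the first of these, replicates 1 and 2 of the knockout-labelled group were above all wild-type arrays and replicate 3 was not.

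Ccnd3 had a mean below wild type in each of its 3 probe sets, with overlapping groups and an interval that included 0 in each. In 2 of the 3 the sign turned when single arrays were left out. The brightest, 1415907_at, read 9.51, 9.69 and 10.08 in the knockout-labelled group against 10.08, 9.85 and 9.44 in wild type, with a difference of -0.03 (SE 0.22, 95% confidence interval -0.55 to 0.48, adjusted p = 0.96). The groups overlapped almost wholly. For 1438805_at the difference was -0.26 (95% confidence interval -0.95 to 0.43) and for 1444323_at it was -0.29 (95% confidence interval -0.79 to 0.20). The intervals of the brightest probe sets reach from -0.68 to 0.18 for Ccnd2, from -0.27 to 0.56 for Ccnd1 and from -0.55 to 0.48 for Ccnd3. Those of Ccnd1 1417419_at and Ccnd2 1416123_at were wider.

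**Figure D2:**
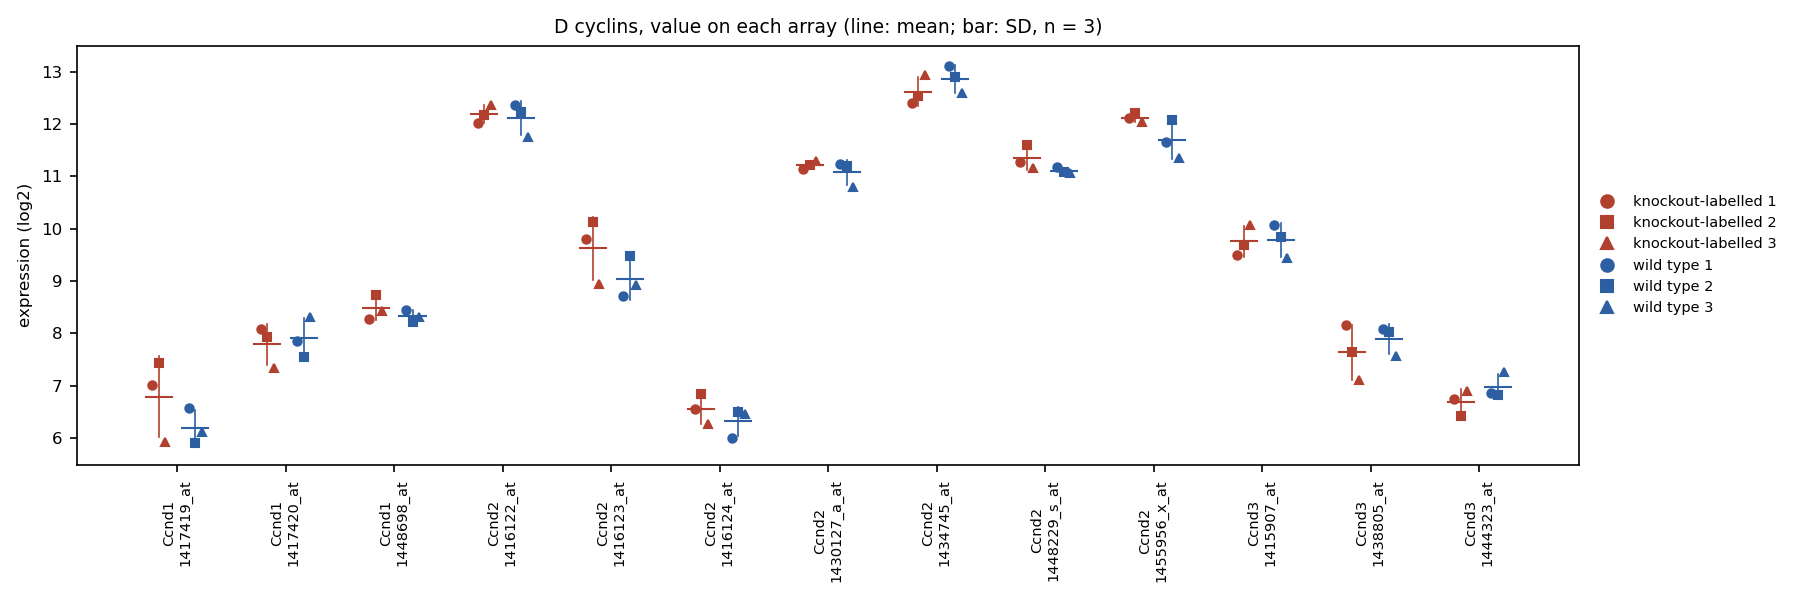
Log2 expression (y axis) of the 13 probe sets of Ccnd1, Ccnd2 and Ccnd3 (x axis) on each of the 6 arrays, with the mean and SD of 3 arrays per group. The groups overlap in all 13, and in Ccnd2 the brightest probe set is lower in the mean of the knockout-labelled arrays and the other 6 are higher.

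Cdk6, one of the 2 kinases that D cyclins activate, came nearest to the threshold of all members. Its probe set 1435338_at read 11.84, 11.62 and 11.62 in the knockout-labelled group against 10.44, 10.37 and 11.05 in wild type. All 3 knockout-labelled arrays were higher than all wild-type arrays, and wild-type replicate 3 was the highest of its group. The difference was 1.07 (SE 0.20, 95% confidence interval 0.61 to 1.54, adjusted p = 0.0529), or 2.11-fold. A second probe set built on the same transcript record, 1455287_at, read 11.43, 11.24 and 11.56 in the knockout-labelled group against 10.38, 10.14 and 10.99 in wild type. The groups were again separate, with wild-type replicate 3 again nearest to the knockout-labelled arrays, and the difference was 0.91 (SE 0.22, 95% confidence interval 0.39 to 1.43, adjusted p = 0.116). The size of the first difference exceeded that of 97.3% of tested probe sets. Without wild-type replicate 3 both were called, at 1.29 (limma adjusted p = 0.0193) and 1.15 (limma adjusted p = 0.042). With any other 1 array left out neither was, and over all alternatives the adjusted p of the first ranged from 0.0113 to 0.187. The third Cdk6 probe set, 1460291_at, was built on another record. It read 1.75 to 2.15 on the 6 arrays, under the bacterial controls, and was not tested.

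The T and NK cell markers, which moved with Cdk6 between the groups, were highest on knockout-labelled replicate 3. On that array the 2 Cdk6 probe sets read 11.62 and 11.56, beside 11.62 to 11.84 and 11.24 to 11.43 on the other knockout-labelled arrays. Without it the differences were 1.11 (limma adjusted p = 0.0816) and 0.83 (limma adjusted p = 0.161). The part of these markers, and of the megakaryocyte and stromal markers, in the Cdk6 difference was not tested.

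Cdk4, the other kinase that D cyclins activate, had differences of smaller size and smaller standard errors, and the difference between the 2 kinases was not tested. The probe set 1422439_a_at read 10.90, 10.94 and 10.92 in the knockout-labelled group against 10.54, 10.42 and 10.32 in wild type. The lowest knockout-labelled array exceeded the highest wild-type array, and the knockout-labelled values lay within a range narrower than the wild-type one. The difference was 0.49 (SE 0.12, 95% confidence interval 0.21 to 0.77, adjusted p = 0.117), or 1.4-fold. The brighter 1422441_x_at read 11.59, 11.81 and 11.74 in the knockout-labelled group against 11.36, 11.32 and 11.13 in wild type, also without overlap, a difference of 0.44 (SE 0.12, 95% confidence interval 0.15 to 0.73, adjusted p = 0.154). In the third, 1422440_at, wild-type replicate 1 exceeded knockout-labelled replicate 1, and the difference was 0.32 (SE 0.18, 95% confidence interval -0.10 to 0.74, adjusted p = 0.426). All 3 differences were above 0 in every alternative, with adjusted p of 0.0549 or more.

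**Figure D3:**
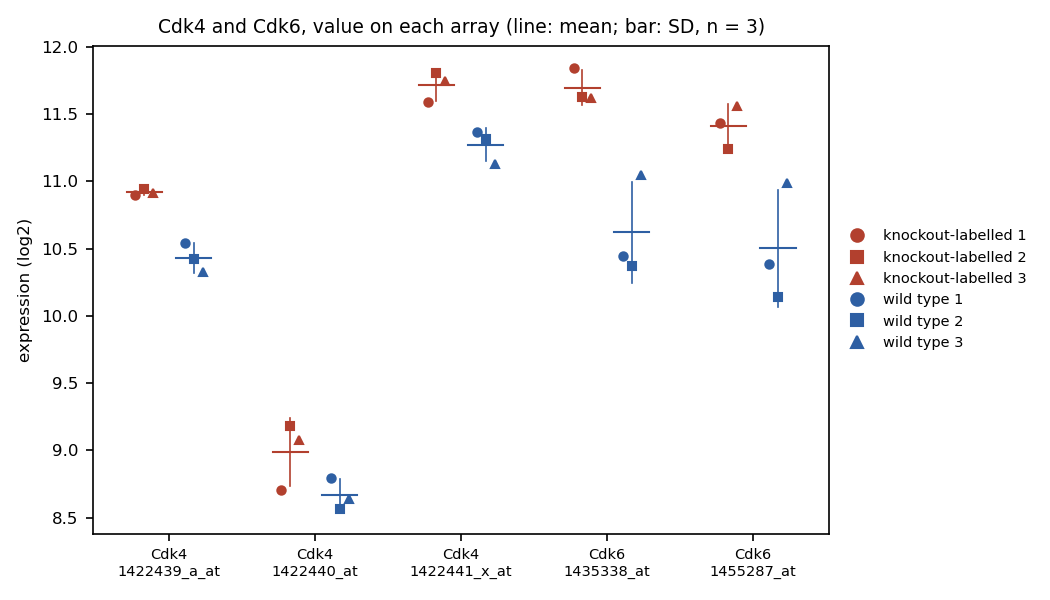
Log2 expression (y axis) of the tested probe sets of Cdk4 and Cdk6 (x axis) on each of the 6 arrays, with the mean and SD of 3 arrays per group. The groups are separate in 4 of the 5 probe sets, and wild-type replicate 3 is the highest wild-type array in both Cdk6 probe sets.

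Of the E cyclins, which activate Cdk2 at the entry into S phase, Ccne2 had the largest difference among the 27 tested probe sets. Its single probe set read 7.93, 8.04 and 7.08 in the knockout-labelled group against 6.08, 6.36 and 6.94 in wild type. Replicates 1 and 2 of the knockout-labelled group were far above wild type, whereas replicate 3 exceeded wild-type replicate 3 only narrowly. The difference was 1.23 (SE 0.33, 95% confidence interval 0.46 to 1.99, adjusted p = 0.138), or 2.34-fold. It was called with array weights (1.50, limma adjusted p = 0.0264) and in no other alternative.

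Ccne1 differed by less than Ccne2 in its means, and the difference between the 2 genes was not tested. Its brighter probe set, 1441910_x_at, read 7.79, 8.19 and 8.19 in the knockout-labelled group against 7.51, 7.75 and 7.79 in wild type. The groups were separate only in the digits beyond those printed, between knockout-labelled replicate 1 and wild-type replicate 3, and the difference was 0.38 (SE 0.19, 95% confidence interval -0.07 to 0.82, adjusted p = 0.374). The other, 1416492_at, overlapped and differed by 0.31 (SE 0.19, 95% confidence interval -0.13 to 0.74, adjusted p = 0.462). Cdk2, the kinase of both E cyclins, was read by 1416873_a_at at 7.85, 8.04 and 8.13 in the knockout-labelled group against 7.87, 7.95 and 8.15 in wild type. The groups covered nearly the same range, and the difference was 0.02 (SE 0.17, 95% confidence interval -0.38 to 0.42, adjusted p = 0.967).

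Pocket proteins, the brakes that these kinases release, were read for Rb1 and Rbl1. The brighter Rb1 probe set, 1417850_at, read 8.60, 8.95 and 8.41 in the knockout-labelled group against 8.67, 8.72 and 8.50 in wild type. The wild-type range lay inside the knockout-labelled range, with a difference of 0.02 (SE 0.19, 95% confidence interval -0.41 to 0.46, adjusted p = 0.966). The dimmer 1444400_at read 4.18, 3.70 and 3.30 in the knockout-labelled group against 4.63, 3.97 and 4.09 in wild type, close to the array's median, and differed by -0.50 (SE 0.26, 95% confidence interval -1.10 to 0.09, adjusted p = 0.378). Its groups overlapped through knockout-labelled replicate 1.

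Rbl1, which encodes p107 and whose promoter window holds the E2F motif shown above, read on its brightest probe set 1424156_at 9.71, 9.81 and 9.77 in the knockout-labelled group against 8.35, 8.90 and 9.56 in wild type. The knockout-labelled arrays lay close together, whereas wild type spanned from its replicate 1, the lowest, to its replicate 3, which came close to the knockout-labelled values. The difference was 0.83 (SE 0.29, 95% confidence interval 0.16 to 1.50, adjusted p = 0.221). Without wild-type replicate 3 it was 1.15 (limma adjusted p = 0.0787) and without wild-type replicate 1 it was 0.54 (limma adjusted p = 0.412). The probe set 1432604_at was also without overlap, at 0.51 (95% confidence interval -0.12 to 1.15), and 1425166_at overlapped, at 0.16 (95% confidence interval -0.38 to 0.70).

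**Figure D4:**
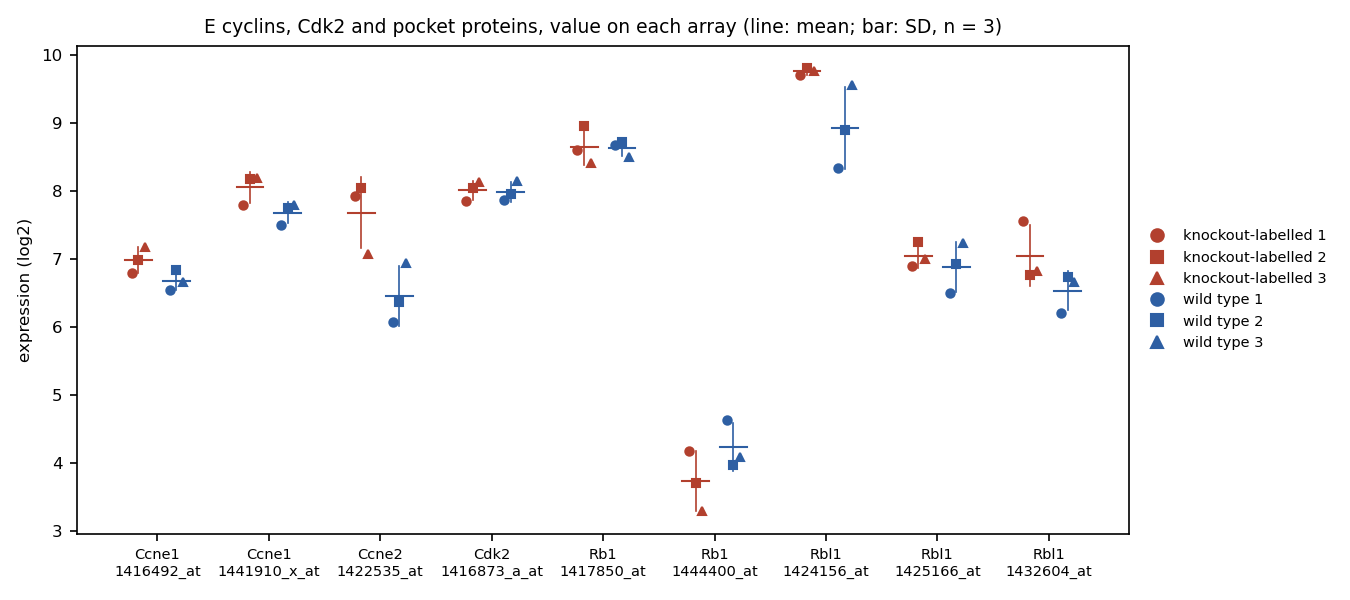
Log2 expression (y axis) of probe sets of Ccne1, Ccne2, Cdk2, Rb1 and Rbl1 (x axis) on each of the 6 arrays, with the mean and SD of 3 arrays per group. Wild-type replicate 3 is the highest wild-type array in Ccne2 and in the brightest Rbl1 probe set 1424156_at, where the groups are still separate, and the groups overlap in Cdk2 and in Rb1.

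The other genes of the pathway were taken from lists, with 1 probe set per gene, the tested one with the highest mean. Over all 10374 named genes tested in this way, 112 were called higher and 99 lower, or 2.03% in either direction and 1.08% higher, and the median difference was 0.00. Of 6 tested CDK inhibitors, which bind and restrain these kinases, 0 were called in either direction, with a median of 0.36. The smallest p belonged to Cdkn1c, which encodes p57 and is abundant in resting HSCs. It read 7.68, 7.71 and 7.33 in the knockout-labelled group against 8.20, 8.24 and 8.19 in wild type. The knockout-labelled arrays were all lower, and the difference was -0.63 (SE 0.17, adjusted p = 0.143). Of 5 genes that activate CDKs, 0 were called, with a median of 0.15, and the smallest p was that of Ccnh, the cyclin of the CDK-activating kinase (0.63, adjusted p = 0.0938). The dimmer Ccnh probe sets differed by 0.30 and -0.04. Among 9 genes of cyclin and inhibitor turnover, 0 were called, with a median of 0.03. There the smallest p was that of Skp2, which marks the inhibitor p27 for breakdown (0.66, adjusted p = 0.177).

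Among the factors that pocket proteins bind, 1 of 9 tested E2F factors and DP partners was called higher and 0 lower, with a median of 0.25. It was E2f8, a repressor that E2F factors switch on late in G1. It read 9.19, 9.15 and 9.02 in the knockout-labelled group against 7.45, 7.45 and 8.26 in wild type. All knockout-labelled arrays were higher, wild-type replicate 3 was again the highest of its group, and the difference was 1.40 (SE 0.25, adjusted p = 0.0462). The call was lost with any 1 array left out except wild-type replicate 3, and its adjusted p lay between 0.00902 and 0.161 over all alternatives. Among 7 genes of the DREAM complex and the third pocket protein Rbl2, 0 were called, with a median of 0.21, and the smallest p belonged to Mybl2 (0.45, adjusted p = 0.156).

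Some genes downstream of the pocket proteins rose. Of 19 tested E2F targets of S phase, 6 were called higher and 0 lower, with a median of 0.95. The 4 with the smallest p were Tk1, Rrm2, Gins1 and Mcm5. The thymidine kinase Tk1 had the smallest p (1.70, adjusted p = 0.009), followed by the ribonucleotide reductase subunit Rrm2 (1.79, adjusted p = 0.0176). Averaged over the 19 genes, the deviation of an array from each gene's mean was 0.55, 0.44 and 0.50 in the knockout-labelled group against -0.61, -0.62 and -0.25 in wild type, so that wild-type replicate 3 was the highest of its group here too. Of 4 tested genes among the S, G2 and M cyclins and Cdk1, 2 were called higher, the S phase cyclin Ccna2 (1.95, adjusted p = 0.00347) and the mitotic cyclin Ccnb2 (2.02, adjusted p = 0.0325). Cdk1 itself, the kinase they activate, named after its value was seen, differed by 0.18 (adjusted p = 0.667). Averaged over the 4 tested genes, the deviation was 0.60, 0.61 and 0.42 in the knockout-labelled group. In wild type it was -0.39, -0.55 and -0.69, so here wild-type replicate 3 was the lowest of its group. These adjusted p-values are from the same limma fit. The summed levels of the T and NK cell and megakaryocyte markers given above were higher on the same arrays. That of the stromal list, set mostly by Col1a2, was lower. The part of all these markers in the lists here was not tested. Nor were the lists tested against the 10 G1 genes. The number of S phase targets called was 1 without knockout-labelled replicate 1 or 2, 3 without knockout-labelled replicate 3, 0 without wild-type replicate 1 or 2 and 4 without wild-type replicate 3.

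**Figure D5:**
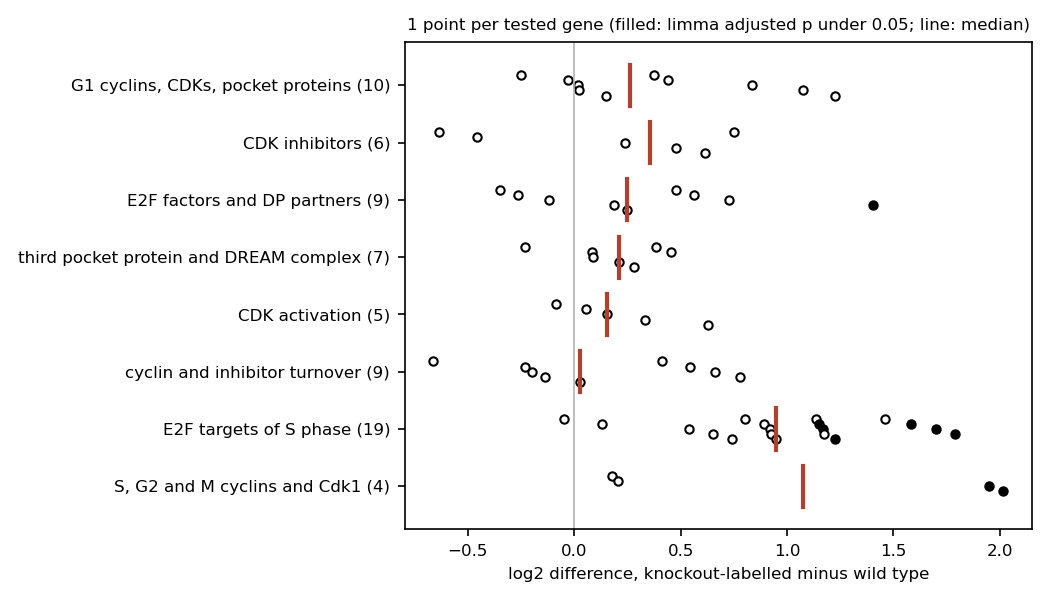
Log2 difference between the groups (x axis) of each tested gene, by list (y axis, number of tested genes in brackets), with the median of each list as a line and called genes filled. The members have a median of 0.26 and 0 called, and the E2F targets of S phase a median of 0.95 and 6 of 19 called.

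The genes whose pattern over the 6 arrays was most like that of Cdk6 probe set 1435338_at were sought among 18527 tested probe sets of other genes with 1 symbol. The 5 nearest were E2f8 (Pearson r = 0.995), Oxnad1 (0.993), Napg (0.992), Rad54l (0.992) and Slc25a5 (0.990). In all 5 the knockout-labelled arrays lay wholly above the wild-type arrays, with wild-type replicate 3 the highest wild-type array. With 6 points in 2 groups, such values describe the shared separation of the groups.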

How the data were processed

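The authors deposited 1 log2 expression value per probe set and array, and the submitters' processing notes name GCRMA as the tool. It subtracts a background predicted from probe sequence, normalises the arrays and combines the probes of a set, which leaves dim sets in a narrow low band. The GCRMA version is not given in the sources used here. The log2 scale follows from the values. The RNA went through 2 rounds of linear amplification, per the labels' protocols. The gap between 3' and 5' actin controls, a sign of RNA coverage, ranged from 2.81 to 3.56 on the knockout-labelled arrays and from 2.57 to 3.16 in wild type. That of the Gapdh controls leaned the other way, at 2.56 to 2.94 against 2.72 to 3.08.

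The 10 genes, the lists and the tests were chosen with earlier results of these data known. The fit used R 4.3.3 and limma 3.58.1 (lmFit, eBayes with an intensity trend, 2-sided), on probe sets above the array's median on at least 3 of 6 arrays. All 10 genes are named with every probe set, and from each list up to 4 called genes or, where none passed, the one with the smallest p. Cdk1 and the cell type markers with values fall outside this rule and were named after their values were seen. The script was tested on simulated data. Alternatives were a looser, a stricter or no filter, median centring, quantile normalisation, array weights, no trend or a robust variance, the largest-variance probe set for a gene, a replicate block and leaving out each array; applying them to the lists was added after seeing the data. The labels do not say that replicate numbers pair the arrays, so the main fit used no pairing. Precision is set by having 3 arrays in a group.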

Additional observations from a re-analysis of the deposited data

How the results depend on the processing

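Without any filter on dim probe sets 49 probe sets were called higher and 54 lower in all, against 150 and 163. With a filter at the 25th percentile they were 62 and 64, with array weights 401 and 463 and with the replicate block 27 and 41. Leaving out 1 array gave 17 to 138 higher and 28 to 129 lower. Scaling moved the median of all differences by under 0.1.

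Among the G1 genes, 0 were called lower in every alternative. The filter at the 70th percentile called 1 probe set and 1 gene higher (Cdk6, adjusted p = 0.0207) and array weights 3 probe sets of 2 genes (Cdk6 and Ccne2). Leaving out 1 array called 0 to 2 probe sets and 0 to 1 gene. The other alternatives called 0, also with the largest-variance probe set for each gene. The replicate block changed none of these counts, with an adjusted p of 0.143 for Cdk6 probe set 1435338_at.

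Of the lists, E2F factors had 0 called without a filter, at the 25th percentile, with quantile normalisation, median centring or the replicate block, and 0 to 1 without 1 array. S phase targets had 2 without a filter, 3 at the 25th percentile, 10 with array weights, 1 with the replicate block and 0 to 4 without 1 array. The S, G2 and M cyclins had 1 without a filter and at the 25th percentile, and 1 to 2 without 1 array. Array weights called 1 gene of CDK activation, Ccnh, and 1 of turnover, Skp2.

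Differences near 0 changed sign. Median centring gave -0.0065 for Cdk2 probe set 1416873_a_at and -0.0030 for Rb1 1417850_at, and array weights gave -0.039 for Ccnd2 1416122_at and 0.14 for Ccnd1 1417420_at. With 1 array left out, Ccnd3 ranged from -0.20 to 0.11 (1415907_at) and from -0.52 to 0.0092 (1438805_at). Ccnd2 ranged from -0.10 to 0.21 (1416122_at) and from -0.0020 to 0.21 (1430127_a_at). Ccnd1 1417420_at ranged from -0.30 to 0.11, Rb1 1417850_at from -0.13 to 0.14, Cdk2 1416873_a_at from -0.043 to 0.10 and Rbl1 1425166_at from -0.030 to 0.34. The causes were not tested. Same-numbered arrays of the 2 groups had deviations that correlated at -0.11, -0.02 and -0.28. Differently numbered arrays gave values from -0.20 to 0.24. With so few arrays in a group, such correlations cannot decide whether the numbers pair the arrays.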
